A study of Mus musculus with 2 samples.

Results

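Foxp3, Ikzf2, Ikzf4, Nrp1 and Lrrc32 are genes that mark or act in regulatory T cells, and the rows of these 5 genes were taken by name from a table of 12432 genes in 178 single cells. All 5 were present. A gene was counted in a cell when its linear value, the deposited log2 value turned back and reduced by the pseudocount, reached 1. Regulatory T cells are CD4 T cells that restrain immune responses, and Foxp3 is the transcription factor that fixes their identity. Ikzf2 encodes Helios and Ikzf4 encodes Eos, zinc finger proteins of the Ikaros family, and Eos works with Foxp3 to repress genes. Nrp1 is a cell surface co-receptor for semaphorins and VEGF, and Lrrc32 encodes GARP, which holds latent TGF-beta on the cell surface. Each of these genes except Foxp3 is also known outside regulatory T cells: Helios and Nrp1, for example, occur in activated conventional CD4 T cells.

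The cells were 2W1S-specific CD4 T cells, sorted from the spleen and the peripheral lymph nodes of mice of genotype C57BL/6. The mice were colonized with Candida albicans that carries the 2W1S peptide (Ca-2W1S). They came from 2 captures on a Fluidigm C1 instrument, March with 82 cells and April with 96 cells, which share 1 genotype and 1 treatment. The column names divide March into Mar1 (25 cells) and Mar17 (57 cells) and April into Apr13 (48 cells) and Apr21 (48 cells). These parts are called runs here, although the labels do not say so and both March parts share the column ending Run1. The sources used here do not give the age or number of the mice, or say whether the captures used different mice. The p-values and SEs below rest on how differences between classes of cells vary from capture to capture, with a variance that limma draws largely from all genes. They do not measure a single gene's own spread between captures or a spread between mice, and the spread may be technical.

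Median genes detected per cell ran from 4859 to 5491 over the runs. In 3 cells of Mar1, mitochondrial genes took more than 50% of the linear signal. Cd3d and Cd3g, subunits of the T cell receptor complex, were at 1 or above in all 178 cells, and Cd4 was in 126 of them. No cell name occurred in both captures and no pair of cells held identical values. The table holds no read counts. The depth behind a value is unknown, and intervals on shares (exact Clopper-Pearson, 95%) cover counting error only. Whether values were divided by gene length is not given, so shares are compared within a gene and not as levels between genes.

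Foxp3 was found in 8 cells, and 7 of them came from March. It was at 1 or above in 7 of the 82 March cells (8.54%, 3.50% to 16.8%) and in 1 of the 96 April cells (1.04%, 0.0264% to 5.67%). By run, 2 cells of Mar1, 5 of Mar17, 1 of Apr13 and 0 of Apr21 held it, and 0 of 48 cells allows a share of up to 6.25%. The 8 log2 values were 5.64 and 4.39 in Mar1, 9.21, 7.38, 2.58, 1.39 and 1.13 in Mar17 and 8.16 in Apr13. They ranged from barely over the line to among the higher values of the set, and the single highest cell held 52.7% of the summed linear Foxp3 signal. Another 15 cells had a Foxp3 value above 0 and below 1, with log2 values from 0.14 to 0.57, so no cell lay between 0.57 and 1.13. The intervals of the 2 captures overlap, and with 1 capture a month the month and the mice cannot be told apart.

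Ikzf2 was found in 50 cells, with run shares within 10 percentage points of each other. It was at 1 or above in 25 of the 82 March cells (30.5%, 20.8% to 41.6%) and in 25 of the 96 April cells (26.0%, 17.6% to 36.0%). The run shares were 32.0% in Mar1, 29.8% in Mar17, 27.1% in Apr13 and 25.0% in Apr21. Neighbouring runs in that order did not differ beyond their counting intervals. Among the cells with Ikzf2 the log2 value had its median at 4.33 in March (1.64 to 8.30) and at 3.98 in April (1.22 to 8.43). No single cell dominated this gene, the highest holding 8.70% of its linear signal. For scale, the median gene of the table was at 1 or above in 16.9% of cells.

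Ikzf4 was at 1 or above in 13 of the 82 March cells (15.9%, 8.72% to 25.6%) and in 13 of the 96 April cells (13.5%, 7.41% to 22.0%). Its share was 19.3% in Mar17 and 20.8% in Apr21, against 8.0% in Mar1 and 6.25% in Apr13. The intervals of the runs overlap within each capture: 10.1% to 31.9% in Mar17 and 0.984% to 26.0% in Mar1, 10.5% to 35.0% in Apr21 and 1.31% to 17.2% in Apr13. Most values were low, with medians of 2.36 in March and 3.46 in April over the cells with the gene, on the log2 scale. A single cell of Apr21, at 9.22, held 58.2% of the linear Ikzf4 signal.

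Nrp1 was at 1 or above in 14 of the 82 March cells (17.1%, 9.66% to 27.0%) and in 27 of the 96 April cells (28.1%, 19.4% to 38.2%). The runs ranged from 12.0% in Mar1 and 19.3% in Mar17 to 22.9% in Apr21 and 33.3% in Apr13, with overlapping intervals. Cells with Nrp1 mostly held it at high values, with medians of 6.25 in March and 5.55 in April on the log2 scale. Lrrc32 was at 1 or above in 4 of the 82 March cells (4.88%, 1.35% to 12.0%) and in 2 of the 96 April cells (2.08%, 0.253% to 7.32%). All 4 March cells were from Mar17. In Mar1, 0 of 25 cells held Lrrc32, which allows a share of up to 12.0%. Its highest cell, at 6.49, held 70.2% of the linear signal, and its fourth-highest value was 2.55.

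**Figure D1:**
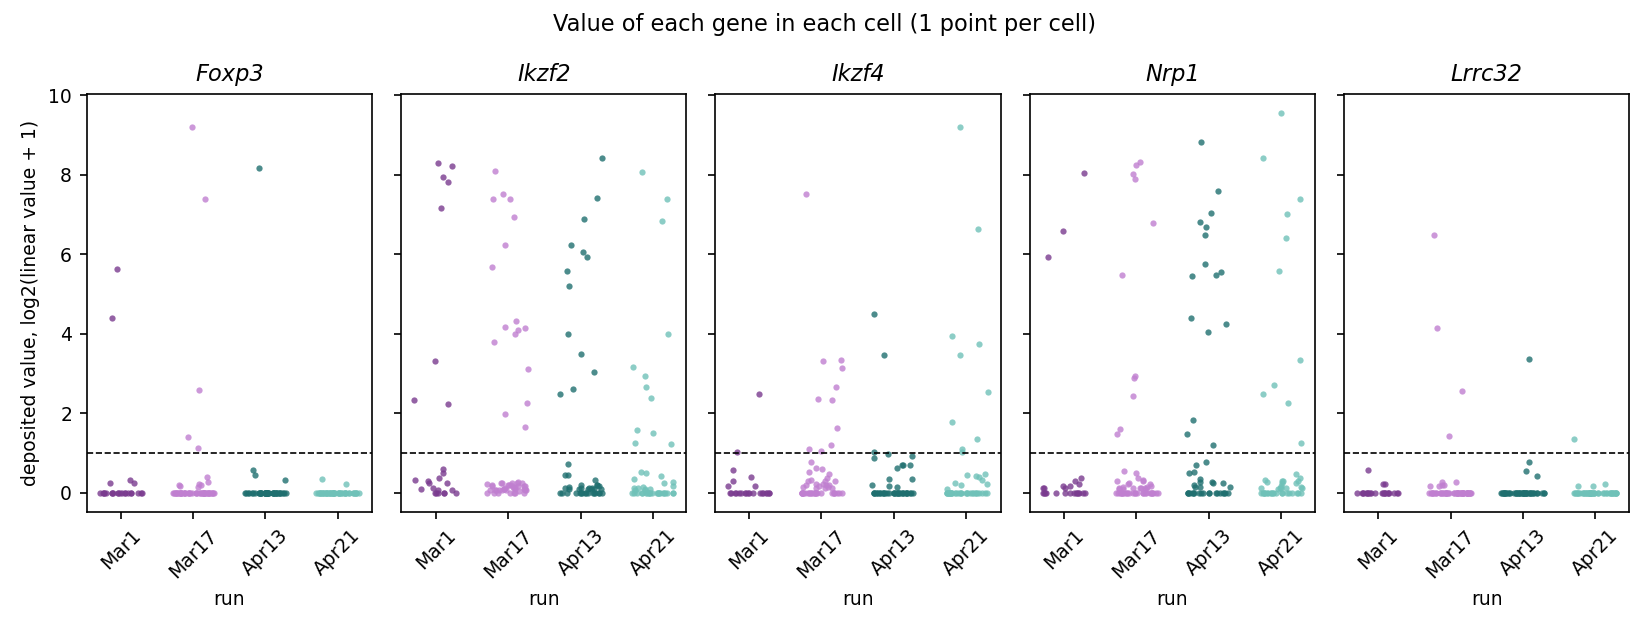
Deposited log2(value + 1) of the 5 genes in each of 178 cells, 1 point per cell, by run, with the dashed line at a linear value of 1. Foxp3 and Lrrc32 lie at 0 in most cells, while Ikzf2 and Nrp1 have cells over the line in every run, up to 8.43 and 9.57.

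Cells with none of the 5 genes at 1 or above made up 41 of the 82 March cells and 48 of the 96 April cells. Of the other 89 cells, 57 held 1 gene of the set, 24 held 2, 6 held 3 and 2 held 4. No cell held all 5, which allows a share of up to 3 cells in 178. At least 2 of the genes met in 15 of the 82 March cells (18.3%, 10.6% to 28.4%) and in 17 of the 96 April cells (17.7%, 10.7% to 26.8%). The commonest states were Ikzf2 alone (25 cells), Nrp1 alone (18 cells), Ikzf2 with Nrp1 (14 cells) and Ikzf4 alone (11 cells). Each of these states except Ikzf4 alone occurred in all 4 runs. Ikzf4 alone had 0 cells in Apr13.

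**Figure D2:**
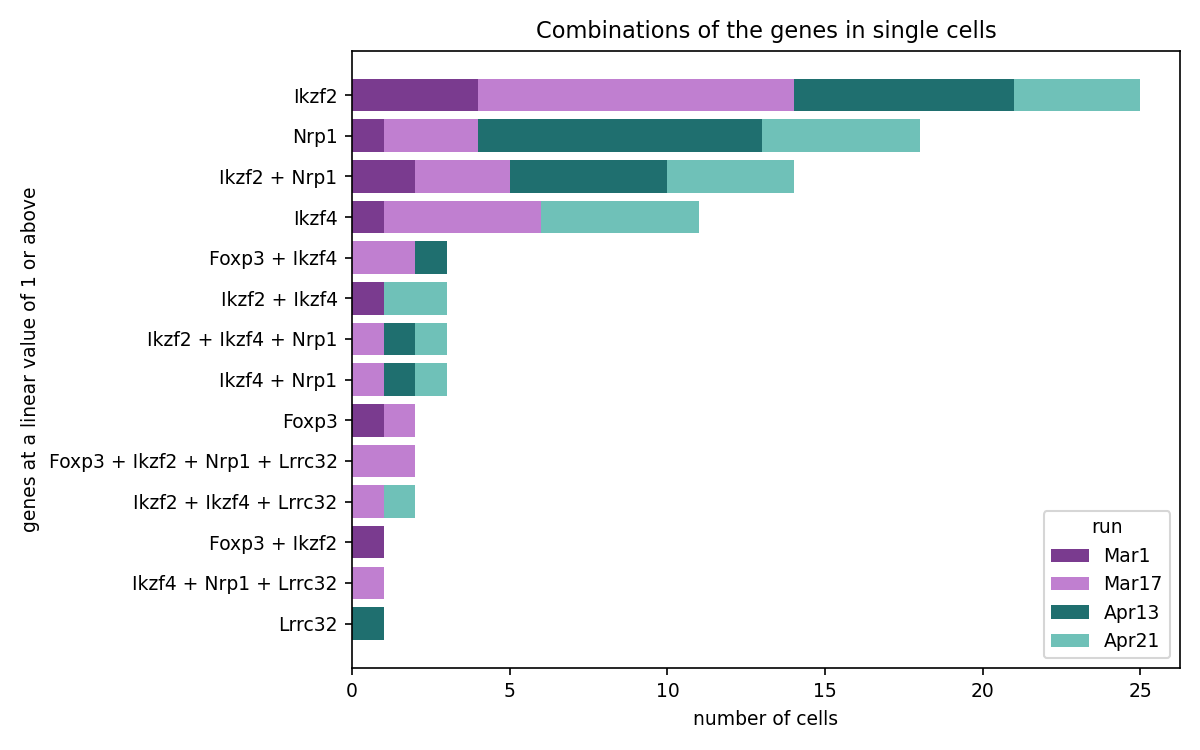
Number of cells with each combination of the 5 genes at a linear value of 1 or above, with bar parts for the 4 runs. Ikzf2 alone is the longest bar with 25 cells, and the combinations that include Foxp3 hold 1 to 3 cells each.

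The other genes of the set appeared mainly in cells without Foxp3. Of 50 cells with Ikzf2, 47 (94.0%, 83.5% to 98.8%) had Foxp3 below 1, and in 39 of them Foxp3 was listed at 0. The same was true of 39 of 41 cells with Nrp1 (95.1%) and of 23 of 26 cells with Ikzf4 (88.5%). For Lrrc32 it was 4 of 6 cells (66.7%, 22.3% to 95.7%). In April all 25 cells with Ikzf2 and all 27 cells with Nrp1 lacked Foxp3 at this level. Because Foxp3 was below 1 in 170 of 178 cells, most cells with any other gene lack it whatever the relation between the genes. The more direct figure is the share within Foxp3 cells, given next.

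Among the 8 cells with Foxp3, Ikzf2 was found in 3 (37.5%, 8.52% to 75.5%), against 47 of the 170 other cells (27.7%). Ikzf4 was likewise found in 3 Foxp3 cells (37.5%), against 23 of the other cells (13.5%). Nrp1 was in 2 Foxp3 cells (25.0%) and in 39 of the other cells (22.9%). Lrrc32 was in 2 Foxp3 cells (25.0%, 3.19% to 65.1%) and in 4 of the other cells (2.35%). Each of the 4 shares was higher in Foxp3 cells, but so were the shares of 52.6% of all genes, and 8 cells leave intervals that are too wide to separate the values. These shares pool the captures, and March gave 7 of the 8 Foxp3 cells but 75 of the 170 other cells. The part of the capture in these differences was not tested. No test was made, since a capture with 1 Foxp3 cell gives no usable class.

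The Foxp3 cells held different combinations of the other genes. In 2 Mar17 cells Foxp3 (7.38 and 2.58) stood with Ikzf2 (6.93 and 4.33), Nrp1 (8.03 and 7.91) and Lrrc32 (6.49 and 4.14), while Ikzf4 was listed at 0 in both. These were the only cells with 4 genes of the set, and 1 of them had 6990 genes detected, the most of any cell. The 2 cells of highest Foxp3, at 9.21 in Mar17 and 8.16 in Apr13, held Ikzf4 at 3.33 and 3.46 with Ikzf2 at 0.08 and 0.00 and with Nrp1 and Lrrc32 listed at 0. A Mar1 cell held Foxp3 at 4.39 with Ikzf2 at 2.24. Ikzf2 and Ikzf4 met in 0 of the 8 Foxp3 cells, which allows a share of up to 37.5%, and in 8 of the 170 other cells, so no difference was detectable.

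Foxp3 cells carried several receptors known from regulatory T cells, but so did many other cells. Tnfrsf4, which encodes the costimulatory receptor OX40, was in 7 of 8 Foxp3 cells and in 96 of 170 other cells. Ctla4, an inhibitory receptor for CD80 and CD86, was in 6 of 8 against 97 of 170, and Tnfrsf18, which encodes GITR, was in 5 of 8 against 97 of 170. Il2ra, the high-affinity IL-2 receptor chain that most regulatory T cells carry, was in only 2 of 8 Foxp3 cells and in 34 of 170 other cells. Over the 19 receptors of the list found in the table, 11 were in a larger share of Foxp3 cells, which is 57.9% of them, against the 52.6% of all genes given above. Of 7 suppressive effector genes in the table, 5 were in a larger share of Foxp3 cells (71.4%) and 2 in a smaller one. Among them, the suppressive cytokine Il10 was in 0 of 8 Foxp3 cells, which allows a share of up to 37.5%, and in 4 of 170 other cells. Of 6 genes known to be repressed in regulatory T cells, 1 was in a larger share of Foxp3 cells (16.7%) and 5 in a smaller one. Among them, Il7r was in 3 of 8 Foxp3 cells and in 84 of 170 other cells. The shares of this paragraph pool the captures too, and the part of the capture in them was not tested.

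Foxp3 overlaps 2 neighbours that are in the table, Ccdc22 and Ppp1r3f. On mm10, Foxp3 lies on the plus strand at chrX:7573644-7595245 and Ccdc22, which encodes a protein of the endosomal sorting machinery, on the minus strand at chrX:7593809-7605517. The genes overlap at their 3′ ends over 1437 bases (chrX:7593809-7595245), of which 590 are exonic in both. None of these 590 bases is coding in Foxp3, and 342 of them are coding in Ccdc22. The kit is not stated to mark strand, so reads from this stretch cannot be told apart. Ccdc22 was at 1 or above in 5 of 8 Foxp3 cells and in 10 of 170 other cells, and 14 of its 15 cells were from March. The 2 lowest Foxp3 cells, at 1.39 and 1.13, had the highest Ccdc22 of the Foxp3 cells, at 10.84 and 9.10, and both cells with 4 genes of the set had Ccdc22 too, at 6.93 and 5.0. Counting Foxp3 only where Ccdc22 was below 1 left 2 of the 82 March cells (2.44%) and 1 of the 96 April cells (1.04%). Ppp1r3f, a regulatory subunit of protein phosphatase 1 on the minus strand at chrX:7557296-7574283, overlaps the 5′ end of Foxp3. It was at 1 or above in 54 cells, of which 1 was a Foxp3 cell. The part of shared reads in the Foxp3 values was not tested.

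**Figure D3:**
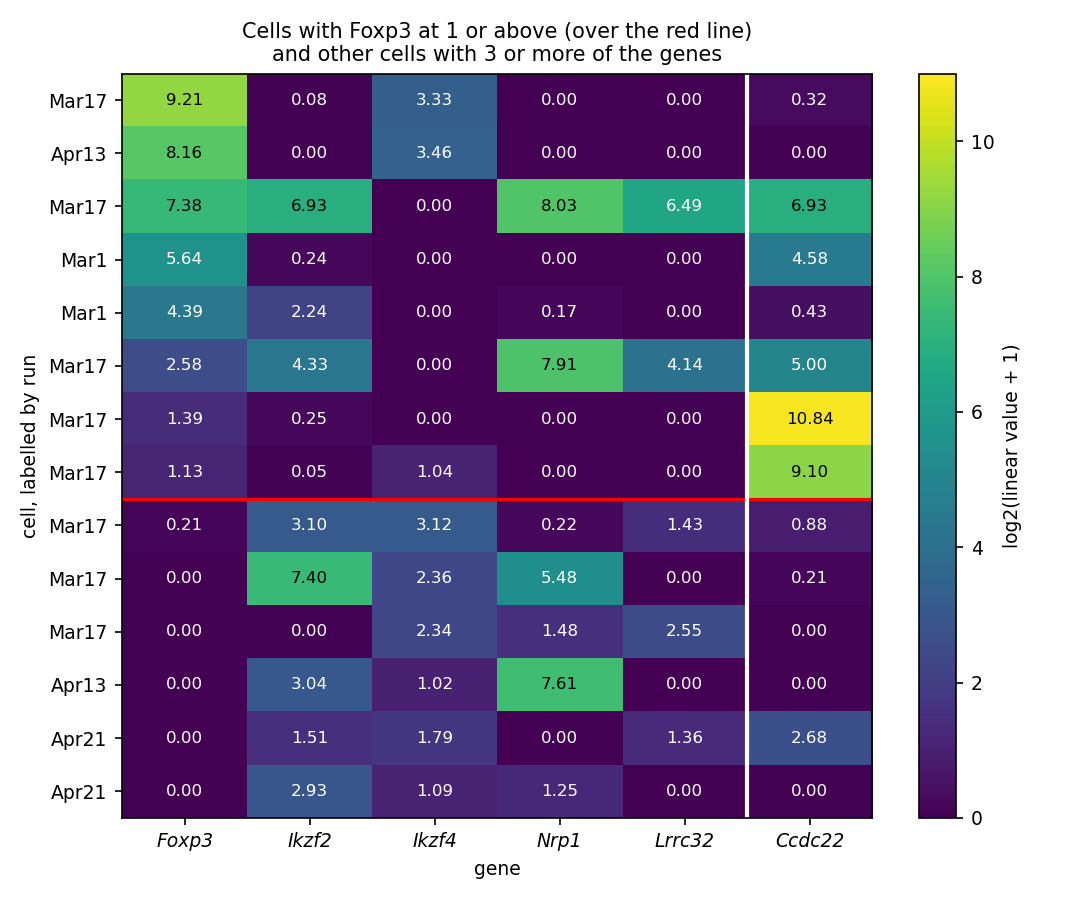
Heat map of log2(value + 1) for the 5 genes and Ccdc22 in the 8 cells with Foxp3 at 1 or above (over the red line, in order of Foxp3) and in the 6 other cells with 3 or more of the genes, labelled by run. The 2 top rows have Foxp3 and Ikzf4 without Ikzf2, and the Mar17 cells at 7.38 and 2.58 have Foxp3, Ikzf2, Nrp1 and Lrrc32 together.

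The other 4 genes lie where no gene of the table overlaps them: Ikzf2 at chr1:69531214-69687245 and Ikzf4 at chr10:128630843-128645991, both on the minus strand, and Nrp1 at chr8:128358604-128503363 and Lrrc32 at chr7:98489283-98502181, both on the plus strand. In the 15 cells with Foxp3 above 0 but below 1, Ikzf2 was at 1 or above in 8 (53.3%, 26.6% to 78.7%). It was so in 39 of the 155 cells with Foxp3 listed at 0 (25.2%). By capture these were 4 of 10 against 18 of 65 cells in March and 4 of 5 against 21 of 90 cells in April. Nrp1 was in 4 of the 15 cells and in 35 of the 155. These low Foxp3 values are part of the 36.6% of all values above 0 in the table that lie below 1.

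Ikzf2 and Nrp1 met in 19 cells, and Nrp1 was in a larger share of cells with Ikzf2 in both captures. In March, Nrp1 was in 8 of 25 cells with Ikzf2 (32.0%, 15.0% to 53.5%) and in 6 of 57 other cells (10.5%). In April it was in 11 of 25 cells with Ikzf2 (44.0%, 24.4% to 65.1%) and in 16 of 71 other cells (22.5%). The direction was the same in each of the 4 runs: 25.0% against 5.88% in Mar1, 35.3% against 12.5% in Mar17, 46.2% against 28.6% in Apr13 and 41.7% against 16.7% in Apr21. A comparison was made over the 8524 genes at 1 or above in at least 10% of all cells. Of these, 6.67% were in a share of cells with Ikzf2 at least 10 percentage points larger in both captures, and 0.763% in a share smaller by that much. Nrp1 was among the first and Ikzf4 was in neither group, while Foxp3 and Lrrc32 were in too few cells to be among the 8524. Its smaller capture difference, 21.5 points, was reached by 20 of the 8524 genes, Nrp1 included.

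On the log2 scale Nrp1 averaged 2.12 in cells with Ikzf2 and 0.52 in other cells of March, and 2.61 in cells with Ikzf2 and 1.16 in other cells of April. The difference of mean log2 values was 1.53 ± 0.42 (SE) and had an adjusted p of 0.165 in limma's test of 4 class means with the capture as a block, so it did not pass. Counting both genes at a value of 10 or above kept the direction, with 33.3% against 4.69% in March and 35.7% against 17.1% in April. Counting any value above 0 turned it round in Mar1, with Nrp1 in 8 of 19 cells with Ikzf2 against 3 of 6 other cells. Over single cells Spearman's rho of Ikzf2 and Nrp1 was 0.182 in March (82 cells) and 0.273 in April (96 cells). The cells of a capture share their library preparation and many zeros.

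By share of cells, the remaining 3 genes of the set were either rare or without a common direction beside Ikzf2. Lrrc32 was in 12.0% of cells with Ikzf2 against 1.75% of other cells in March and in 4.0% against 1.41% in April, which rests on 6 cells in all. Ikzf4 was in 12.0% of cells with Ikzf2 against 17.5% of other cells in March, and in 20.0% against 11.3% in April. Foxp3 was in 12.0% of cells with Ikzf2 against 7.02% in March, and in 0 of 25 against 1 of 71 cells in April. The limma differences of these 3 genes were 0.22 ± 0.14 for Lrrc32, -0.12 ± 0.23 for Ikzf4 and 0.11 ± 0.16 for Foxp3, with adjusted p from 0.778 to 0.965. By mean log2 value Ikzf4 was lower in both captures, by -0.19 in March and -0.06 in April. Lrrc32 (0.44 and -0.01) and Foxp3 (0.28 and -0.07) changed sign between March and April.

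**Figure D4:**
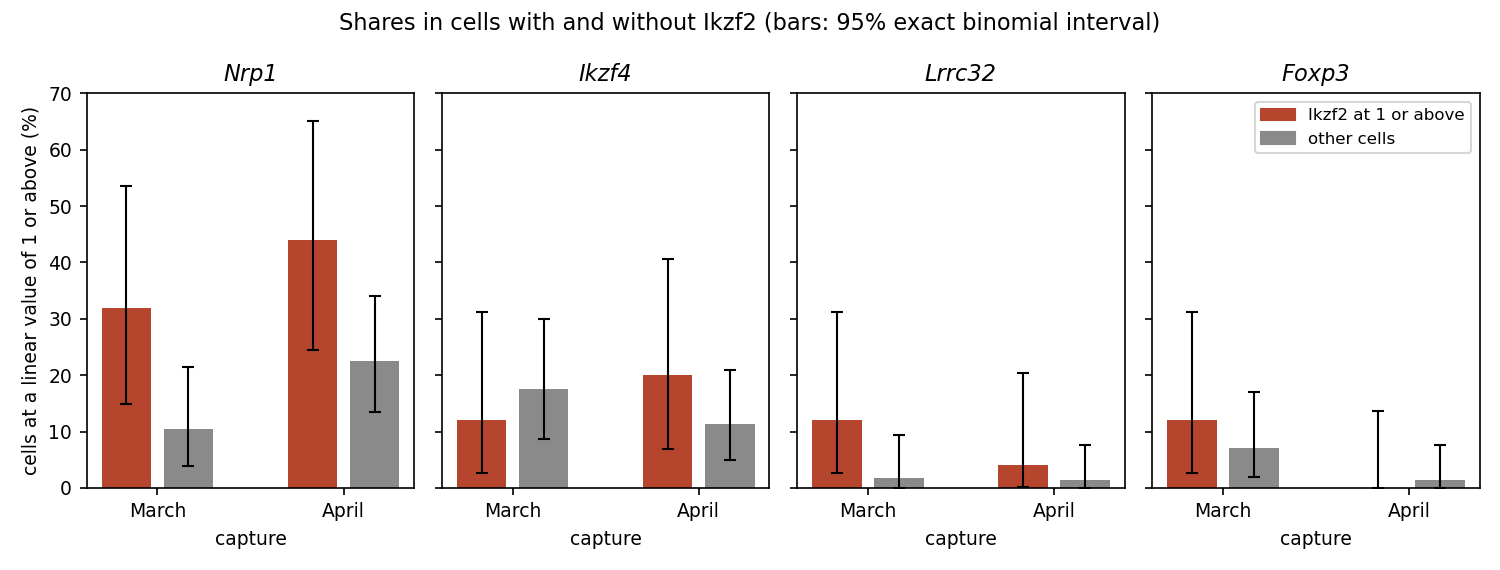
Share of cells (y axis, %) in which each of the other 4 genes reached a linear value of 1, for cells with Ikzf2 (red) and other cells (grey) of each capture, with exact 95% binomial intervals. Nrp1 was in 32.0% and 44.0% of cells with Ikzf2, against 10.5% and 22.5% of other cells, with intervals that overlap.

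Across all genes, cells with Ikzf2 had lower Il7r and higher St13, Srgn and Traj23 than the other cells. These 4 of 10794 genes (0.0371%) passed an adjusted p of 0.05 in limma, and 856 genes (7.93%) had an unadjusted p below 0.05. Il7r encodes the IL-7 receptor chain that naive and memory T cells need for survival, and is low in regulatory T cells. It averaged 1.60 in cells with Ikzf2 and 3.88 in other cells of March, and 1.51 against 3.88 in April (adjusted p 0.0161, limma). In shares, Il7r was in 32.0% of March cells with Ikzf2 against 59.7% of other cells, and in 36.0% against 50.7% in April. Higher genes were St13, a co-chaperone, by 2.70 ± 0.58 (adjusted p 0.0161, limma), and Srgn, the granule proteoglycan serglycin, by 2.49 ± 0.55 (adjusted p 0.0210, limma). Traj23, a joining segment of the T cell receptor alpha chain, was higher by 2.17 ± 0.49 (adjusted p 0.0239, limma).

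These 4 calls are sensitive to the cells that enter. Without the 3 cells over 50% mitochondrial signal 0 genes passed, and the same held with each run left out in turn, though each of the 4 differences kept its sign there. All 3 of those cells were in the class without Ikzf2. The adjusted p of Il7r was 0.0526 without those 3 cells and between 0.0928 and 0.567 without a run. Without the capture block 0 genes passed as well.

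Genes of T follicular helper cells, the CD4 cells that help B cells in germinal centres, mostly averaged higher in cells with Ikzf2, though none passed the test. Of the 10 follicular helper genes 0 passed in limma and 7 had an unadjusted p below 0.05. All 10 had a positive difference (9 of 10 with mean linear values), and 8 were higher in both captures, with a median difference of 1.13 on the log2 scale. Over all genes tested, 35.2% were higher in both captures and the median difference was 0.11. Maf, a transcription factor of these cells, differed by 2.17, Sh2d1a, the adaptor SAP, by 1.91, and Pdcd1, the inhibitory receptor PD-1, by 1.64 (adjusted p 0.0780, limma). Il21, their main cytokine, differed by 1.42, while Bcl6, the factor that defines them, differed by only 0.21 ± 0.31. Sh2d1a differed by 3.16 in March and 0.66 in April, and Pdcd1 by 0.98 in March and 2.30 in April. Pdcd1 was in 24.0% of March cells with Ikzf2 against 5.26% of other cells, and in 32.0% against 15.5% in April.

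The 19 receptors known from regulatory T cells had a median difference of 0.47, and 0 passed. The difference was positive for 15 of them (13 with mean linear values), 10 were higher in both captures and 7 had an unadjusted p below 0.05. Tigit, an inhibitory receptor, differed by 1.48, Tnfrsf4 by 1.47, the IL-2 receptor beta chain Il2rb by 1.12 and the activation marker Cd83 by 0.96. Pdcd1 and Icos belong to both this list and the follicular helper list. Ctla4 went apart between the captures, with 2.80 in March and -0.38 in April. Il2ra differed by 0.39 ± 0.32. Of 5 tested genes known to be repressed in regulatory T cells, Il7r fell, and 0 passed upward. Their median difference was -0.08, with -0.85 in March and 0.14 in April, 2 were lower in both captures and 1 was higher. The other 4 differed by -0.87 (Dapl1, a marker of resting T cells), -0.08 (Cd40lg, the ligand of CD40), -0.08 (Pde3b, a phosphodiesterase) and 0.29 (Igfbp4, which binds insulin-like growth factors). Of 20 tested regulators and partners of Foxp3 0 passed, 6 were higher (30%) and 6 lower (30%) in both captures, and the median difference was 0.06. For the lists of this paragraph, the base over all genes tested was 35.2% higher and 17.1% lower in both captures. Among the regulators and partners, Satb1, a chromatin organizer that regulatory T cells keep low, differed by -1.73 (adjusted p 0.287, limma). Batf, a transcription factor of activated T cells, differed by 1.90 (adjusted p 0.100, limma) with 3.46 in March and 0.35 in April. Foxp1, a relative of Foxp3, differed by 1.23 (adjusted p 0.541, limma) with 2.19 in March and 0.27 in April.

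Other cell markers and depth moved with the Ikzf2 classes in part. The median number of genes detected was 5539 in cells with Ikzf2 against 5207 in other cells of March, and 4932 against 4935 in April. Cd4 was in 92.0% of March cells with Ikzf2 against 63.2% of other cells, and in 68.0% against 70.4% in April. Of 7 myeloid markers 3 were in the table, and Itgax, Lyz2, Cd14 and Fcer1g were not analysed here. Itgam, the integrin CD11b, was in 56.0% of cells with Ikzf2 in each capture, against 33.3% of other cells in March and 35.2% in April. Csf1r, the macrophage growth factor receptor, was in 0 of 50 cells with Ikzf2 and in 5 of 128 other cells. By share, Itgam was higher in cells with Ikzf2 in both captures, and the other 2 markers, Csf1r and Siglech, were lower in both. The log2 of the summed level of the 3 markers ranged from 0.00 to 3.06 in cells with Ikzf2 against 0.00 to 7.91 in other cells of March. In April it ranged from 0.00 to 3.18 against 0.00 to 8.0. Marker lists of other lymphocytes had their highest sums in cells with Ikzf2 in March. The 2 CD8 markers reached 9.96 in cells with Ikzf2 against 7.27 in other cells of March, and 10.69 against 7.30 in April. For the 3 B cell markers in the table the highest sums were 10.69 against 6.64 in March and 10.26 against 10.42 in April. For the 2 NK cell markers they were 10.41 against 7.04 in March and 2.31 against 10.64 in April. Cd8a was in 4 of 25 March cells with Ikzf2 against 1 of 57 other cells, and in 1 of 25 against 6 of 71 in April. No doublet caller was run, and the part of these markers and of depth in the differences above was not tested.

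**Figure D5:**
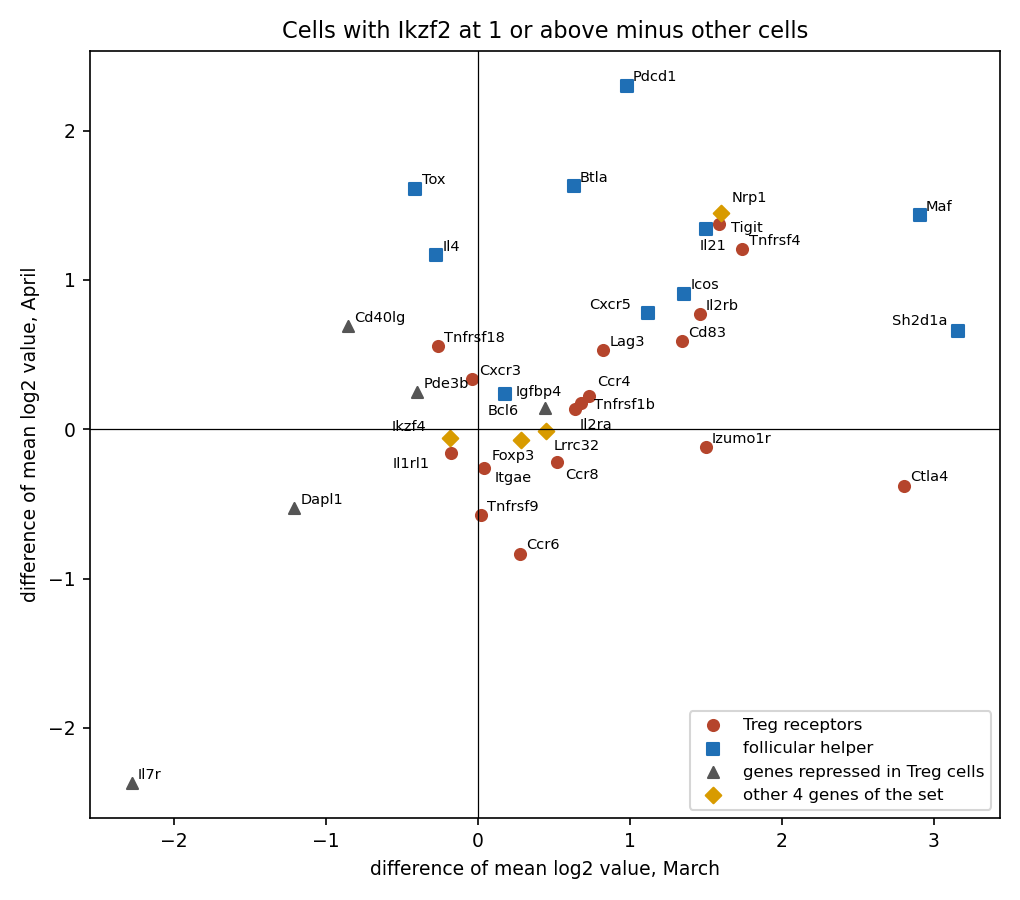
Difference of mean log2 value between cells with Ikzf2 at 1 or above and other cells, March on the x axis and April on the y axis, for genes of 3 lists and the other 4 genes of the set. Of the follicular helper genes 8 lie at the upper right, Nrp1 lies there at 1.60 and 1.45, and Il7r lies far from the others at the lower left at -2.28 and -2.37. Pdcd1 and Icos, which are also receptors of the regulatory T cell list, are drawn with the follicular helper genes.

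Cells divided by Nrp1 gave no call. With limma 0 of 10794 genes (0%) passed and 598 (5.54%) stood at an unadjusted p below 0.05, and the smallest adjusted p was 0.110, for Gpx1, a glutathione peroxidase (8.35 in cells with Nrp1 against 5.84 in other cells of March, 7.84 against 5.15 in April). In shares, 4.56% of 8524 genes were larger by 10 points in both captures and 1.52% smaller. Of Ikzf2 and Ikzf4, the other genes of the set among these 8524, only Ikzf2 was larger by that much. It was in 57.1% of March cells with Nrp1 against 25.0% of other cells and in 40.7% against 20.3% in April. That is the pairing described above, read from the other side. Lrrc32 was in 3 of 14 March cells with Nrp1 against 1 of 68, but in 0 of 27 April cells with Nrp1 against 2 of 69. Of the 19 receptors of regulatory T cells, 9 were higher (47.4%) and 2 lower (10.5%) in both captures beside Nrp1, with a median difference of 0.38. Of the 10 follicular helper genes 6 were higher and 4 lower in both captures, with a median of 0.54. Of 5 tested genes repressed in regulatory T cells 0 were higher and 2 lower, with a median of -0.42. Of 10 tested ligands and partners of Nrp1 (semaphorins, VEGF-A, plexins and signalling proteins), 5 were higher in both captures and 2 lower, with a median difference of 0.04 and 0 past the test. Over all genes tested 28.9% were higher and 22.1% lower in both captures, with a median of 0.06.

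Cells divided by Ikzf4 also gave 0 of 10794 genes (0%) past the threshold in limma, with 636 (5.89%) at an unadjusted p below 0.05 and a smallest adjusted p of 0.755. In shares 5.9% of 8524 genes were larger by 10 points in both captures and 3.16% smaller. Neither Ikzf2 nor Nrp1, the other genes of the set among the 8524, was in either group. Foxp3 averaged 0.84 in cells with Ikzf4 against 0.34 in other cells of March, and 0.63 against 0.02 in April. The difference of 0.55 ± 0.26 had an adjusted p of 0.829 in limma, and the April value rests on 1 cell. The March value rests mostly on 1 cell too, a Mar17 cell with Foxp3 at 9.21. Of the 19 receptors of regulatory T cells 1 was higher and 5 were lower in both captures beside Ikzf4, that is 5.26% and 26.3%, with a median difference of -0.16. Over all genes tested 25.6% were higher and 24.4% lower in both captures. With classes at any value above 0 the direction of the list turned, with 14 receptors higher, 5 lower and a median of 0.08. Foxp3 and Lrrc32 had too few cells for such a test.

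By Spearman's rho over cells within each capture, the genes with the most similar pattern to Ikzf2 among 7507 genes were Thap2 (0.332 in March, 0.350 in April), A730017L22Rik (0.314, 0.373), St13 (0.290, 0.412), Eftud2 (0.280, 0.314) and Abcd4 (0.283, 0.277). For Nrp1 they were Arhgef15 (0.351, 0.279), Gabarap (0.318, 0.270), Mllt6, Etfrf1 and Slamf8. For Ikzf4 they were Agbl2 (0.329, 0.286), Yipf6 (0.257, 0.271), Adra1a, Fbxo11 and Elf4. The values are over 82 March and 96 April cells, with the same cells and many zeros shared by all genes. Foxp3 and Lrrc32 did not reach the 10% of cells that this ranking asked for. Ikzf2, Ikzf4 and Nrp1 were not among each other's 5.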

How the data were processed

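Single CD4 T cells were captured on a Fluidigm C1 instrument and amplified with SMART-Seq v4, a full-length chemistry without molecular identifiers, per the labels' protocols. The authors deposited log2 values for 12432 genes in 178 cells. The genome build is mm10 per the submitters' processing notes, and neither aligner nor counter is given in the sources used here. Back-transformed values sum to between 892206 and 979888 per cell, so they were taken as log2(x + 1) with x on a TPM-like scale, which the values and no header show. Every gene's 4th-highest log2 value is at least 2.0003, which points to a gene filter before deposit. Coordinates are from GENCODE vM21, also mm10. Of the identifiers, 12163 matched a symbol and 269 did not. No column was left unmapped.

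A gene was counted at a linear value of 1 or above. Shares carry exact Clopper-Pearson 95% intervals (SciPy 1.17.1), and a share of 0 carries a limit of 3 cells over the total. Cells were divided by Ikzf2, Nrp1 or Ikzf4, and the mean log2 values of the 4 capture-by-class groups were tested with limma 3.58.1 in R 4.3.3 (trend, two-sided, Benjamini-Hochberg at 0.05, capture as a block, 1 residual degree of freedom, genes detected in at least 10% of cells, zeros included). Cells were never replicates, and runs of a capture count as 1 replicate. Both captures belong to 1 group and hold cells of both classes, so each capture pairs its own classes. No doublet caller was run.

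The genes, lists and tests were chosen with earlier results of these data known. Named are the 5 genes, genes of fixed lists, at most 10 genes in each direction past the threshold with the same sign in both captures (otherwise the 3 smallest p per direction), and the 5 genes of highest lower rho among genes at 1 or above in 10% of the cells of both captures. Alternatives were levels of above 0 and of 10, a pseudocount of 10, filters, mean linear values, quantile normalization, no block, and leaving out cells, runs or captures. Counting Foxp3 only where Ccdc22 was below 1 was chosen after seeing the data. Other Python steps used pandas 2.3.3 and numpy 2.4.6, and figures matplotlib 3.10.9.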

Additional observations from a re-analysis of the deposited data

How the results depend on the processing

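With any value above 0, shares in March and April were 20.7% and 6.25% for Foxp3, 84.2% and 60.4% for Ikzf2, 47.6% and 35.4% for Ikzf4, 51.2% and 59.4% for Nrp1 and 15.9% and 8.33% for Lrrc32. At least 2 genes then met in 75.6% and 62.5% of cells, and Ikzf2 without Foxp3 was in 65.9% and 56.3%. At a linear value of 10 or above, Ikzf2 was in 14.6% of April cells, as was Ikzf2 without Foxp3, Ikzf4 in 1.22% of March and 6.25% of April cells, Lrrc32 in 0 April cells, and at least 2 genes in 7.32% and 8.33%. Without Apr13, Foxp3 was in 0 April cells. Without Mar17, Ikzf4 was in 8.0% and Lrrc32 in 0 March cells, and without Apr21, Ikzf4 was in 6.25% of April cells. Counting Foxp3 only where Ccdc22 was below 1 gave 2.44% in March, and moved no April share or combined count by more than its interval.

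The 4 genes called beside Ikzf2 became 1 (Il7r) with a pseudocount of 10. They became 0 with mean linear values, without the replicate block, with classes at any value above 0, without the 3 cells of over 50% mitochondrial signal, and without Mar1, Mar17, Apr13 or Apr21. Other filters and quantile normalization kept the count at 4. With classes at any value above 0, 2 genes were called beside Nrp1 and 1 beside Ikzf4, and these counts were 0 under every other alternative. Leaving out a capture left 1 mean per class and no residual degree of freedom, so no count was possible there. The cause of these changes was not tested.

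Signs of uncalled differences within the set turned as follows. Beside Ikzf2, Foxp3 went to -1.39 (mean linear values), Ikzf4 to 0.01 (without Apr13) and Lrrc32 to -0.06 (above 0) and -0.04 (without Mar17). Beside Nrp1, Foxp3 went to -1.02 (mean linear values), -0.15 (above 0) and -0.26 (without Mar17), Ikzf4 to 0.08 (without Apr21) and Lrrc32 to -0.04 (without Mar17). Beside Ikzf4, Foxp3 went to -0.01 (above 0), Ikzf2 to 0.94 (without Mar17), Nrp1 to 0.01 (without Mar1) and 1.23 (without Apr21), and Lrrc32 to 0.00 (pseudocount 10 and without Mar17), -0.39 (mean linear values) and -0.10 (above 0). Nrp1 beside Ikzf2 kept its sign throughout, from 0.84 to 1.95, with adjusted p from 0.152 to 0.951 (limma). The median of all genes beside Ikzf2 was 0.11 in the reported fit, 0.00 after quantile normalization and -0.13 with mean linear values, and the follicular helper median was then 0.74 and 0.97.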
